A study of Mus musculus with 2 samples.

Results

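SR proteins, hnRNPs, the Tra2 proteins and the CLK kinases are the trans-acting regulators that decide which exons enter an mRNA, and their own mRNAs are among the transcripts they splice. The genes described here were chosen by name alone: symbols of the form Srsf with a number, symbols starting with Hnrnp, Tra2a, Tra2b and Clk1 to Clk4, each with at least 1 protein-coding transcript in the annotation. The rule found 37 genes, of 21901 protein-coding genes and 55536 mouse genes in the tables. They comprised 11 SR genes, 20 hnRNP genes, 2 Tra2 genes and 4 CLK genes.

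The RNA came from primary macrophages that were derived from the bone marrow of C57BL/6J mice, and was sequenced in 1 group of 2 polyA-selected libraries. The free-text description of both libraries gives the stimulus as lipid A at 100 ng/ml for 120 minutes, whereas the source and treatment fields name lipoprotein A, a protein. Age and sex were not collected, no allele or transgene is named, and both libraries carry the same donor record, so the spread between them may be technical. No unstimulated library was analysed here, so the values are levels after stimulation and not responses to it, with no test and no p-value. The libraries held 33272581 and 50266403 expected counts over mouse genes for replicates 1 and 2. The 7 macrophage markers, led by Lyz2, summed to 18315 and 23911 TPM (a unit of abundance in which transcript length and sequencing depth are divided out). The 7 granulocyte markers summed to 506 and 65.4 TPM and the 4 platelet markers to 932 and 238 TPM. Most of the granulocyte sum was S100a9, S100a8 and Ngp, whereas Ly6g, Elane, Mpo and Camp were each under 3 TPM in both libraries. Pf4 alone gave 916 and 236 TPM of the platelet sum, beside 13.9 and 1.55 TPM for Ppbp and less for Itga2b and Gp9. The 4 T cell, 4 B cell and 3 stromal markers each summed to under 3 TPM in both libraries, with Trac at 0 in both. In bulk RNA, fewer cells of a type and less RNA per cell cannot be told apart.

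SR proteins bind exonic enhancer sequences through RNA recognition motifs and recruit the splicing machinery through a domain rich in arginine and serine. CLK kinases phosphorylate that domain in the nucleus and so control where SR proteins reside and how they act, while hnRNPs coat nascent RNA and often act as repressors of splice sites. Many of these genes are known to limit their own output by splicing: the protein binds its own pre-mRNA and promotes inclusion of a poison exon, an exon with an early stop codon, or retention of an intron. Transcripts whose stop codon lies well upstream of the last exon junction are targets of nonsense-mediated decay, and transcripts that keep an intron are often held in the nucleus. The annotation labels such transcripts by type, and the label is a prediction from structure, so a share given below is an amount of RNA assigned to that structure and no decay was measured.

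The following sequences show the exons and splice sites on which the shares turn. They come from the GENCODE M21 transcripts (mm10), are written 5′ to 3′ on the gene's strand, and were taken from the members with the highest shares. The first set gives the part of the decay exon that is read as coding, from its first base to the annotated stop codon, which is in capitals, in 4 members whose leading decay transcript ends translation in an exon that the leading coding transcript lacks. The Srsf6 exon has 268 bases in all and this part lies at chr2:162932815-162932966, the Srsf4 exon has 188 bases (chr4:131884295-131884390), the Hnrnpd exon 98 bases (chr5:99962545-99962612) and the Hnrnpll exon 83 bases (chr17:80044976-80045022). The Srsf4 transcript model, Srsf4-204, begins inside its exon, so the 188 bases are not the whole exon. The other decay transcript of the gene, Srsf4-203, carries that exon with 207 bases (chr4:131884276-131884482). The Hnrnpd exon also lies in 4 of the 6 protein-coding transcripts of that gene, all of them coding there, so the exon by itself does not mark a decay transcript. The leading coding transcript that lacks it, Hnrnpd-210, is a model of 493 bases with 0 bases after its coding part. Hnrnpd-208 has 2 junctions after its stop codon. No protein-coding transcript of Srsf4 or Hnrnpll overlaps its decay exon. For Srsf6, 1 of 2 overlaps it and is coding there, so the sequence of that exon does not by itself mark a decay transcript either.
Srsf6-201: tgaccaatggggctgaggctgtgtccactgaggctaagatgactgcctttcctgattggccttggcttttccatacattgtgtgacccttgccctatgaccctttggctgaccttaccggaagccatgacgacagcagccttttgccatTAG
Srsf4-204: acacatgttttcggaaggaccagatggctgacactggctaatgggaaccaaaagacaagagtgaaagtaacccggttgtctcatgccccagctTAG
Hnrnpd-208: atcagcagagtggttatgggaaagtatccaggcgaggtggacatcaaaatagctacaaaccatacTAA
Hnrnpll-203: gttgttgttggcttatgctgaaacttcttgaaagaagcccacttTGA

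The second set shows the CLK genes, in which the leading decay transcript lacks an exon of the leading coding transcript. In all 4 CLK genes this was exon 4 of 13. That exon has 91 bases in Clk1 (chr1:58420121-58420211), 88 in Clk2 (chr3:89169615-89169702), 97 in Clk3 (chr9:57758627-57758723) and 91 in Clk4 (chr11:51273078-51273168). Each length leaves a remainder of 1 base when divided by 3, so joining exon 3 to exon 5 shifts the reading frame. The exons of Clk1 and Clk4 matched at 85 of 91 positions (93.4%). These 4 exons were chosen for display after the structures had been seen and are given in lower case throughout.
Clk1 exon 4: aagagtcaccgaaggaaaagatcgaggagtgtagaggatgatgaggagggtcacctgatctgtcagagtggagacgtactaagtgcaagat
Clk2 exon 4: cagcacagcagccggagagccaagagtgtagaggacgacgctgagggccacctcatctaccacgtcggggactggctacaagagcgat
Clk3 exon 4: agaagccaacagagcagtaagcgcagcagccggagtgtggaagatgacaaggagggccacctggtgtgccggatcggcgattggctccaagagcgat
Clk4 exon 4: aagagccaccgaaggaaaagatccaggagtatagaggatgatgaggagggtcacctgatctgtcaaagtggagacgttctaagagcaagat

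With exon 4 left out, translation in Clk1-210 and Clk2-204 ends soon after the new junction. The stop codon, in capitals, is complete 21 bases into exon 5 in Clk1 and 12 bases into it in Clk2.
Clk1-210 after the junction: atgaaattgttgatacttTAG
Clk2-204 after the junction: atgaaattgTAA
In Clk3-209 the stop codon is complete 90 bases after that junction, in the second exon after it. In Clk4-204 it lies upstream of that junction, in exon 3, and the transcript also carries exons that the coding transcript lacks.

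**Figure D1:**
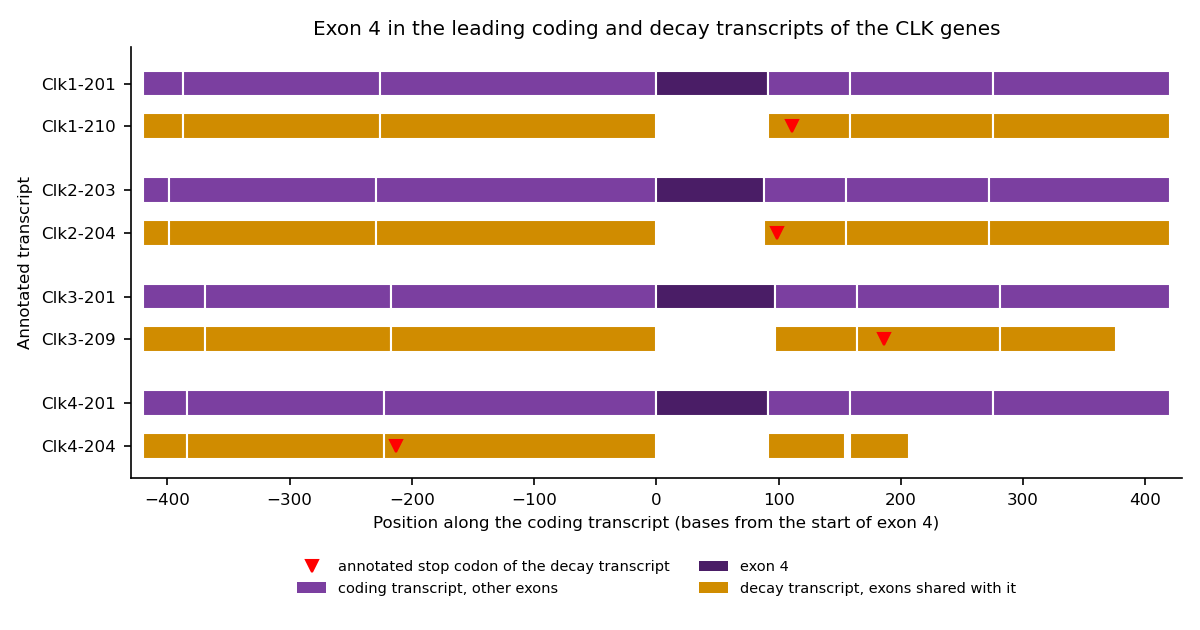
Exons of the leading coding and leading decay transcript of each CLK gene, laid end to end along the coding transcript; the x axis is the position in bases from the start of exon 4, blocks are exons, and the triangle is the stop codon of the decay transcript. Exon 4 is missing from all 4 decay transcripts, and bases of a decay transcript that the coding transcript lacks are not drawn.

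The third set gives the splice sites of introns that the leading retained-intron transcript keeps whole, 10 bases of exon and 20 of intron on the 5′ side and 20 of intron and 10 of exon on the 3′ side, with the intron's terminal dinucleotides in capitals. They belong to the 4 members of highest retained-intron share whose leading retained-intron transcript spans an entire intron of a coding transcript. The leading retained-intron transcripts of Srsf11 and Clk4, which have the highest and the next but one share, keep no whole intron and are not shown. The Clk1 intron is intron 3 (871 bases, chr1:58420212-58421082), the Clk2 intron is also intron 3 (691 bases, chr3:89168924-89169614), and both lie directly upstream of exon 4. The Hnrnph3 intron is intron 4 (430 bases, chr10:63017611-63018040). The Srsf1 intron (378 bases, chr11:88049599-88049976) is spliced out in the coding transcript Srsf1-202 and lies within an exon of the leading one.
Clk1 5′ site: ttcacacgggGTatgagtgccttttaaacg
Clk1 3′ site: cgcccacttgacgtgtccAGaagagtcacc
Clk2 5′ site: ctcatcttcaGTgagtgccagcccagcctt
Clk2 3′ site: ccccccccaccccccgacAGcagcacagca
Hnrnph3 5′ site: tatgatggtgGTatgtgtgtctaatgaaca
Hnrnph3 3′ site: tttccttccattttatacAGgctatggagg
Srsf1 5′ site: tctcgctctcGTacataagatgattggtga
Srsf1 3′ site: tttcatgtgtctttctgtAGacatatctga
All 4 introns begin with GT and end with AG.

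The CLK kinases were the least abundant of the 4 classes. Clk3 stood at 37.4 TPM in replicate 1 and 33.0 in replicate 2. Clk1, whose mRNA is a classical example of a partly spliced nuclear reserve, stood at 17.2 and 11.3 TPM (14.2 ± 4.16, SD, n = 2). Clk4 stood at 8.82 and 6.80 TPM and Clk2 at 6.97 and 5.76 TPM. The order Clk3, Clk1, Clk4, Clk2 was the same in both libraries, but the ranges of Clk4 and Clk2 overlapped.

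Of the 11 SR genes, 10 reached 10 TPM in both libraries. Srsf5 was far above the others at 218 and 252 TPM, and its lower value exceeded the higher value of every other SR gene. Srsf2, a founding member of the family, stood at 86.6 and 66.4 TPM, and Srsf3, the smallest SR protein and an adaptor for mRNA export, at 74.6 and 60.2 TPM. Srsf7, another export adaptor, stood at 66.3 and 43.3 TPM. Srsf1 stood at 53.2 and 38.0 TPM and Srsf6 at 46.7 and 36.1 TPM. From Srsf2 down to Srsf6 the order was the same in both libraries. Each gene's range overlapped that of the next, so the order of neighbours does not exceed the spread. Both values of Srsf2 lay above those of Srsf1 and Srsf6, and just above those of Srsf7. Both values of Srsf3 lay above those of Srsf1 and Srsf6. By kallisto Srsf2 (67.7 and 49.2 TPM) overlapped Srsf7 (57.5 and 34.2) and Srsf6 (49.3 and 36.6). Srsf3 (61.9 and 46.4) overlapped Srsf6 there as well. Only the place of both above Srsf1 (46.3 and 31.3) held in the 2 quantifications. Srsf9 (33.2 ± 3.25 TPM), Srsf11 (29.3 ± 6.65), Srsf10 (22.5 ± 6.38) and Srsf4 (18.5 ± 1.56) were lower (SD, n = 2). Srsf12 was listed at 0 TPM in both libraries, and kallisto gave it 0 and 0.0166 TPM. The 2 Tra2 genes, whose products bind purine-rich enhancers and carry RS domains at both ends, were alike: Tra2a stood at 68.4 and 71.0 TPM and Tra2b at 77.5 and 57.4 TPM.

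The hnRNP genes held most of the RNA of the set, 2608 of 3483 TPM in replicate 1 and 2389 of 3163 TPM in replicate 2. All 20 were above 1 TPM in both libraries and 9 averaged 100 TPM or more. Hnrnpa2b1 was highest at 428 and 353 TPM, and Hnrnpa3, its close paralog, followed at 348 and 279 TPM. Hnrnpf, which binds G-rich stretches, stood at 264 and 294 TPM, and Hnrnpk, which binds C-rich stretches, at 261 and 264 TPM. The range of Hnrnpa3 overlapped that of Hnrnpf, so the order of these neighbours does not exceed the spread. Both values of Hnrnpk lay just below those of Hnrnpf by RSEM. By kallisto the order was reversed, with Hnrnpk at 244 and 230 TPM and Hnrnpf at 224 in both libraries. Hnrnpab stood at 221 and 204 TPM and Hnrnpc, a core packaging protein, at 163 and 137 TPM. Hnrnpd, also known as AUF1 and a binder of AU-rich elements in inflammatory mRNAs, stood at 132 and 116 TPM. Hnrnpu, a nuclear matrix protein, stood at 119 and 105 TPM. The other 12 averaged between 13.9 TPM (Hnrnph3) and 104 TPM (Hnrnpa1).

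Across the 37 genes the median was 57.1 TPM. Over the 36 at 1 TPM or more in both libraries it was 58.2 TPM, beside 15.4 TPM over the 9590 protein-coding genes that met the same minimum. By class the medians were 89.4 TPM for hnRNP genes, 68.6 for Tra2 genes, 41.4 for SR genes and 11.0 for CLK genes.

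**Figure D2:**
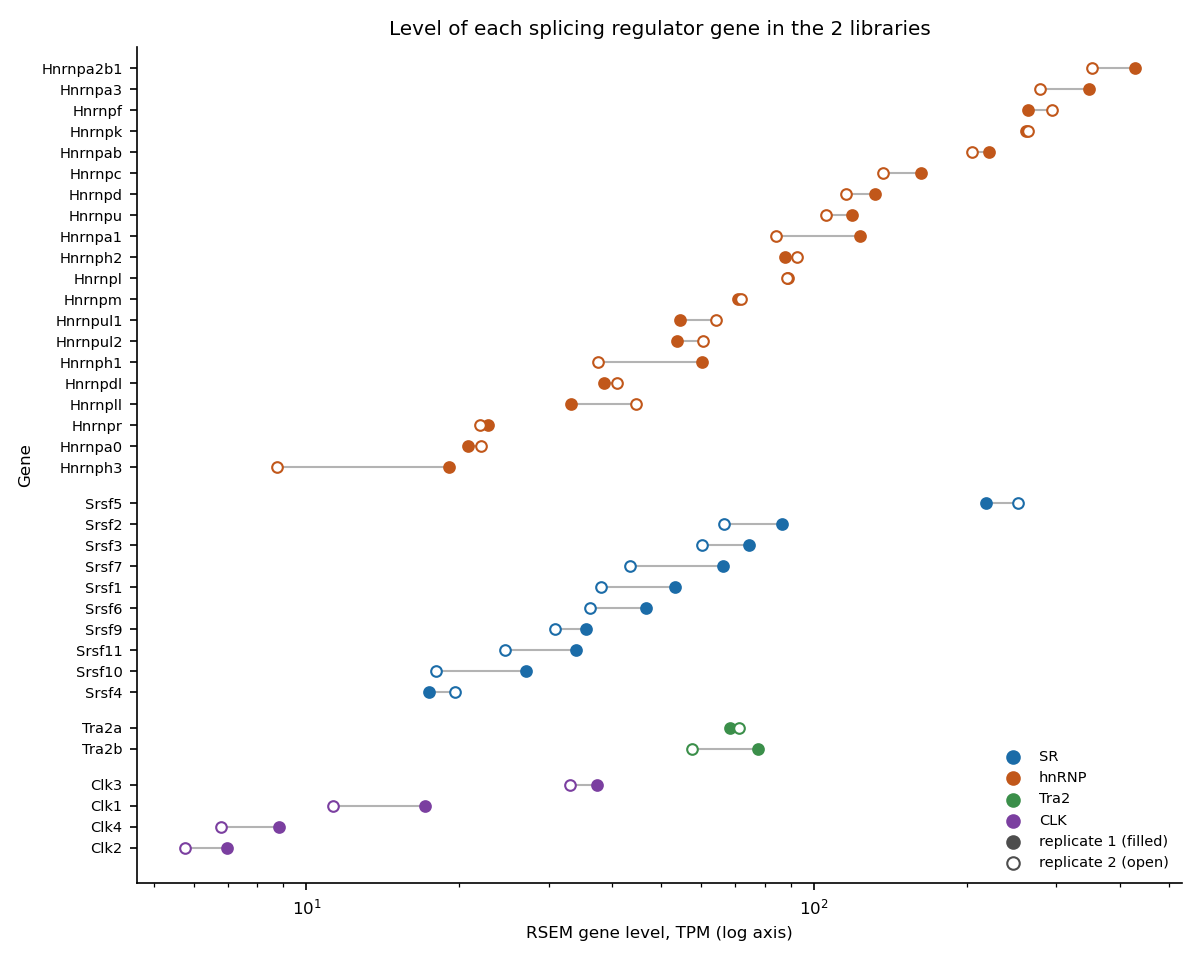
Level of 36 genes in TPM (log axis), by class, with replicate 1 as filled and replicate 2 as open points joined by a line; Srsf12, listed at 0, is not drawn. Most pairs lie close together, and Hnrnph3, at 19.1 and 8.77 TPM, is the widest.

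Between the libraries most of the set moved little. Ratios were taken as log2 of replicate 2 over replicate 1, from expected counts with TMM normalisation, where the mean count of a gene was 50 or more. Of the 36 members with a ratio, 1 was 2-fold or more apart, beside 3.99% of 10443 genes. That gene was Hnrnph3, which stood at 19.1 TPM in replicate 1 and 8.77 in replicate 2, a log2 ratio of -1.13. It was also the only member lower by 1.5-fold or more, beside 7.14% of all genes, a threshold chosen after the values had been seen. Next came Srsf7, with a ratio of -0.56, and Hnrnph1, at 60.3 and 37.6 TPM with a ratio of -0.55. On the other side, Hnrnpll stood at 33.2 and 44.6 TPM (0.55), Hnrnpul1 at 54.5 and 64.0 (0.36) and Hnrnpul2 at 53.7 and 60.5 (0.30). Hnrnpll is known for regulating Ptprc splicing in lymphocytes, and Hnrnpul1 and Hnrnpul2 are relatives of Hnrnpu.

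The members' median log2 ratio was -0.06, beside 0.03 over all genes, and their median absolute ratio was 0.21, beside 0.24. By class, 8 of 10 SR genes, 3 of 4 CLK genes, 1 of 2 Tra2 genes and 8 of 20 hnRNP genes were lower in replicate 2, and 46.5% of all genes were. Scaling by TPM + 1 moved the median of all genes to -0.09 and that of the members to -0.19, so counts of lower and higher members depend on the scale: 24 of 36 were lower by that measure and 20 by the main one. The granulocyte and platelet markers were also lower in replicate 2 (medians of -2.89 and -1.97 over 3 genes each), and their part in these ratios was not tested.

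For each gene the percent of its TPM assigned to transcripts of each annotated type was summed, for genes with 100 expected counts or more in both libraries. Protein-coding transcripts made up a median of 86.0% of a member's RNA (n = 35), beside 96.8% over 8342 genes. Retained-intron transcripts made up a median of 5.37% in the 28 members that have one annotated, beside 2.05% over 5693 genes. Decay transcripts made up a median of 8.82% in the 25 members that have one, beside 1.80% over 2773 genes. The members also have more such transcripts annotated, a median of 3 retained-intron transcripts against 2 over all genes, and of 2 decay transcripts against 1, and the part of this in the shares was not tested. The single most abundant transcript held a median of 53.3% of a member's RNA, beside 79.0% over all genes.

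At 20% in both libraries the members' counts lay near those of all genes. A retained-intron share of 20% or more in both libraries was found in 2 of 28 members (7.14%), beside 8.96% of all genes. For decay transcripts it was 3 of 25 (12.0%), beside 11.9%. These small counts moved with the threshold and with the library. At 10% in both libraries they were 7 of 28 members for retained introns (25.0%), beside 15.8% of all genes, and 8 of 25 for decay transcripts (32.0%), beside 19.6%. Without replicate 1, 5 of 28 members had a retained-intron share of 20% or more (17.9%), beside 11.0% of all genes. Without replicate 2, 6 of 25 had a decay share of 20% or more (24.0%), beside 14.4%. A leading transcript that was not protein coding was found in 1 of 35 members (2.86%), beside 5.18%.

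**Figure D3:**
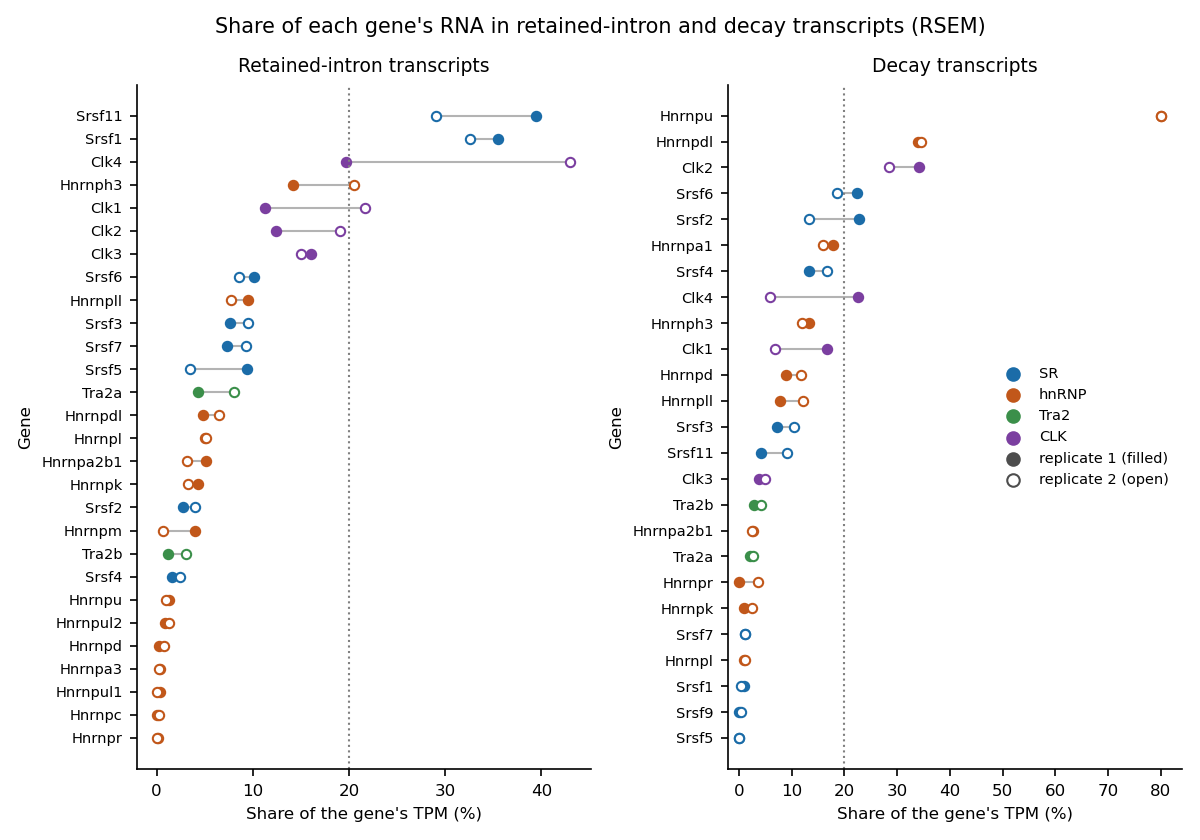
Share of each gene's TPM (%) in retained-intron transcripts (left, 28 genes) and decay transcripts (right, 25 genes), replicate 1 filled and replicate 2 open; the dotted line marks 20%. Srsf11, Srsf1 and Clk4 have the highest mean shares for retained introns, and Hnrnpu, at 80.0% in both libraries, lies apart for decay transcripts.

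The CLK genes had a median retained-intron share of 16.1%. Clk3 had 16.0% and 15.0%, a close pair. Of these, 8.33% and 7.68% were in Clk3-202, a model of 389 bases that rested on 8.68 and 10.6 expected counts, and without transcripts under 500 bases the Clk3 share was 8.38% and 7.93%. Clk2 had 12.5% and 19.1%, Clk1 11.2% and 21.7%, and Clk4 19.7% and 43.0%. The last 2 were the only members whose share was higher by 10 points or more in replicate 2 (2 of 28, or 7.14%, beside 2.92% of all genes, a threshold set after the values had been seen). In Clk4 the difference came largely from 2 short models, Clk4-209 (421 bases) and Clk4-206 (442 bases), at 0 in replicate 1 and 15.3% and 12.2% in replicate 2. These shares rested on 5.28 and 4.71 expected counts, so the Clk4 pair is not firm. Part of the Clk1 difference also came from short models. Clk1-205 (430 bases) and Clk1-209 (456 bases) stood at 0 in replicate 1. In replicate 2 they held 3.30% and 2.49%, on 1.98 and 1.71 expected counts. Without transcripts under 500 bases the Clk1 share was 11.2% and 16.9%, and the Clk4 share 19.7% and 21.3%. Neither gene was then higher by 10 points or more in replicate 2. Part of the Clk2 difference came from Clk2-206 (888 bases) and Clk2-205 (906 bases), both at 0 in replicate 1. In replicate 2 these held 2.14% and 2.06%, on 2.47 and 2.45 expected counts. By expected counts in place of TPM the Clk4 share was 21.9% and 27.1%, and the Clk1 share 18.8% and 26.4%. The leading retained-intron transcript of Clk1, Clk1-204, keeps introns 3, 4 and 6 and held 5.69% and 8.39% of the gene's RNA.

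The decay share of the CLK genes, led in each by the transcript without exon 4, was 34.1% and 28.4% in Clk2, 16.7% and 6.91% in Clk1, 22.6% and 5.94% in Clk4, and 3.84% and 4.94% in Clk3. In Clk1 and Clk4 the 2 types thus differed between the libraries in opposite directions, while their protein-coding share was 63.4% and 65.0% for Clk1 and 57.7% and 51.1% for Clk4. The leading decay transcript of Clk4, Clk4-204, rested on 12.1 and 1.72 expected counts. By expected counts the Clk4 decay share was 8.65% and 2.54%, so this pair is not firm either. The 95% interval that RSEM gives for the Clk1-210 level was 0.686 to 4.39 TPM in replicate 1 and 0.136 to 1.71 TPM in replicate 2, so the intervals overlapped.

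In the SR genes the retained-intron median was 8.44% (n = 8), beside 1.73% in the hnRNP genes (n = 14). Srsf11 had 39.5% and 29.1%, spread over several of its 11 annotated retained-intron transcripts, the largest of which on average, Srsf11-208 (2415 bases), held 10.3% and 8.34% and has 82.3% of its bases outside every coding transcript's exons. Srsf11-213 (2952 bases) held 11.4% and 6.18%. Srsf1, the prototype SR protein, had 35.5% and 32.5%, all in Srsf1-203, a model of 759 bases. Every base of that model lies inside exons of Srsf1-201, the leading coding transcript, so none of its bases is intronic relative to it. By expected counts the Srsf1 share was 6.79% and 5.92%. Srsf6 had 10.2% and 8.56%, with intron 2 kept whole, and Srsf3 had 7.67% and 9.47%. Srsf7 had 7.35% and 9.28% and Srsf4 1.60% and 2.43%. Srsf5 had 9.44% in replicate 1 and 3.50% in replicate 2.

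Among the SR genes the decay share was highest on average in Srsf6, at 22.4% and 18.7%, or 11.2% and 9.07% by expected counts. All of it was in the transcript that carries the 268-base exon shown above. Srsf2, slightly above Srsf6 in replicate 1, had 22.7% and 13.2%, or 5.95% and 3.13% by expected counts, all in Srsf2-204, a model of 620 bases, all within the exons of the coding transcript, that begins inside the coding sequence and has 2 junctions after the stop codon the transcripts share. Srsf4 had 13.3% and 16.7%, or 4.93% and 6.38% by expected counts. Of its TPM, 11.0% and 14.8% were in Srsf4-204, the transcript shown above. A further 2.28% and 1.92% were in Srsf4-203, which carries the longer form of that exon. Srsf3, whose protein is known to promote inclusion of a poison exon in its own mRNA, had 7.26% and 10.4%, all in Srsf3-201. That transcript carries an exon of 456 bases at chr17:29039454-29039909 that the coding transcript lacks and that holds its stop codon. Both Tra2 genes have the same arrangement, with a decay exon of 276 bases in Tra2b (chr16:22258986-22259261) and 306 bases in Tra2a (chr6:49252803-49253108). Their decay shares were low by RSEM, 2.79% and 4.21% in Tra2b and 2.07% and 2.72% in Tra2a. Their retained-intron shares were 1.14% and 3.10% in Tra2b and 4.27% and 8.09% in Tra2a.

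The hnRNP genes held both the highest decay shares and many of the lowest retained-intron shares. Hnrnpu had 80.0% of its RNA in the transcript Hnrnpu-206 in both libraries, 94.8 and 84.4 TPM, and 17.4% and 17.6% in its only protein-coding transcript, Hnrnpu-201. It was the member whose leading transcript was not protein coding. The 2 transcripts share 2349 coding bases, of 2382 in Hnrnpu-206 and 2403 in Hnrnpu-201. They differ at the 3′ end, where Hnrnpu-206 stops in sequence that is untranslated in Hnrnpu-201 and has 3 further junctions, the last 183 bases after its stop codon. Hnrnpu-206 is 2844 bases long and Hnrnpu-201 is 7640, and by expected counts, which do not divide by length, the decay share was 60.9% and 60.7%.

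Hnrnpdl had a decay share of 33.9% and 34.6%, divided between 2 transcripts. Hnrnpdl-201, with 19.0% and 16.6%, has the same coding sequence as the coding transcript and differs in its untranslated parts. Hnrnpdl-205, with 14.9% and 17.9%, ends translation in exon 1. Hnrnpa1 had 17.9% and 16.0%, mostly in Hnrnpa1-203, whose coding sequence of 963 bases is also that of the coding transcript. Hnrnph3 had 13.3% and 11.9%, in a transcript that skips exon 3 of 139 bases, and a retained-intron share of 14.1% and 20.5%, or 4.46% and 6.84% by expected counts. Hnrnpd had 8.87% and 11.7%, and Hnrnpll 7.73% and 12.2%. The label of decay thus covers several structures: of the 25 leading decay transcripts, 11 stop in an exon that the leading coding transcript lacks, 10 stop in an exon that it shares, 2 have the same stop codon with other coding exons, and 2 have the same coding sequence. The 11 include Hnrnpd-208, whose exon is coding in 4 of the 6 protein-coding transcripts of that gene. They also include Srsf6-201, whose exon overlaps coding sequence of 1 of 2.

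The retained-intron label was similarly mixed. Of the 28 leading retained-intron transcripts, 14 span a whole intron of some coding transcript of the gene and 14 do not.

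The deposited data hold a second quantification of these libraries, in the format of kallisto, which assigns reads to transcripts by matching short words. The leading transcript was the same in 30 of 35 members. The retained-intron share lay within 5 points in 25 of 28 members and the decay share in 17 of 25. Srsf6 differed most. Its decay share was 22.4% and 18.7% by RSEM and 50.5% and 53.5% by kallisto. The decay transcript Srsf6-201 stood at 10.4 and 6.74 TPM by RSEM (intervals 6.64 to 13.1 and 4.35 to 8.60) and at 24.9 and 19.6 TPM by kallisto. The kallisto values lie above both intervals, and the transcript becomes the leading one. Clk2 differed the other way, at 34.1% and 28.4% by RSEM and 15.0% and 13.5% by kallisto, as did Srsf2, at 11.1% and 4.52% by kallisto. By kallisto Tra2a had 15.7% and 14.6% and Srsf3 15.4% and 22.0%, both above their RSEM values. For Hnrnpu the 2 quantifications were close, with 78.4% and 79.9% by kallisto.

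For retained introns the largest gaps were in Srsf1, at 24.4% and 20.7% by kallisto, in Hnrnpll, at 9.48% and 7.76% by RSEM and 19.9% and 17.0% by kallisto, in Clk2, at 17.4% and 25.2% by kallisto, and in Srsf4, at 5.21% and 6.26% by kallisto. The retained-intron share was higher by kallisto in 22 of 28 members. In Srsf6, Clk2 and Tra2a, among others, the gap in decay share between quantifications was larger than the gap between libraries in either one. The same held for Srsf3, Hnrnpll, Hnrnph3 and Hnrnpdl. Hnrnpdl had a decay share of 33.9% and 34.6% by RSEM and of 43.6% and 44.2% by kallisto.

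**Figure D4:**
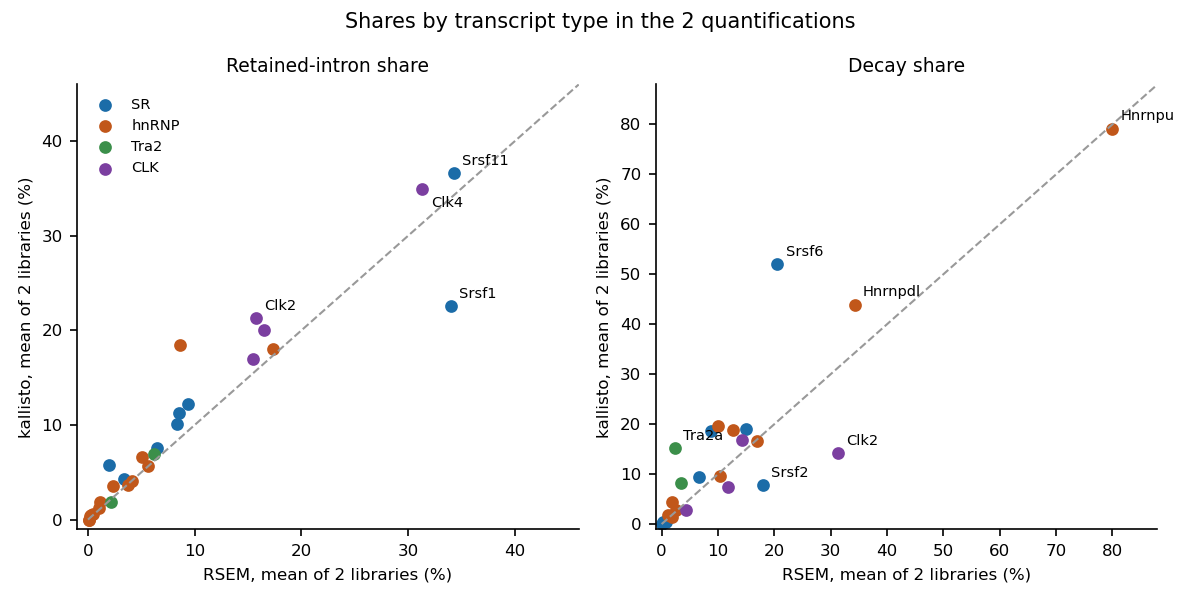
Mean share over 2 libraries (%) by RSEM (x axis) and by kallisto (y axis) for retained-intron transcripts (left) and decay transcripts (right), 1 point per gene, with the dashed line of equality. Srsf6 lies far above the line and Clk2 below it for decay transcripts, and Srsf1 lies below it for retained introns.

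At the gene level the 2 quantifications differed most for Hnrnpa3, which stood at 348 and 279 TPM by RSEM and at 123 and 90.5 TPM by kallisto. The ratio of kallisto to RSEM was 0.34 in Hnrnpa3, beside a median of 0.86 over the 36 members and 0.85 over 9966 protein-coding genes. Of the 31-base words in its leading coding transcript, 92.6% also occur in transcripts of other genes, most of them in Gm5641, a transcribed processed pseudogene that holds 88.2%. Gm5641 stood at 57.1 and 40.2 TPM by RSEM and at 215 and 163 TPM by kallisto. The sum of both was 405 and 319 TPM by RSEM and 338 and 253 TPM by kallisto. The level of Hnrnpa3 is therefore uncertain, and its place as second in the order holds by RSEM alone.

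Other members share much sequence with processed pseudogenes without such a gap. Hnrnpf shares 56.2% and Hnrnpa1 54.7% of their words, with kallisto-to-RSEM ratios of 0.80 and 0.85. Hnrnpk shares 42.7%, and its copy Gm7964 stood at 16.2 and 17.1 TPM by RSEM and at 0.0507 and 0.0628 TPM by kallisto. In all, 11 of 37 members share 20% or more, 3 share 50% or more, and 14 share none.

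**Figure D5:**
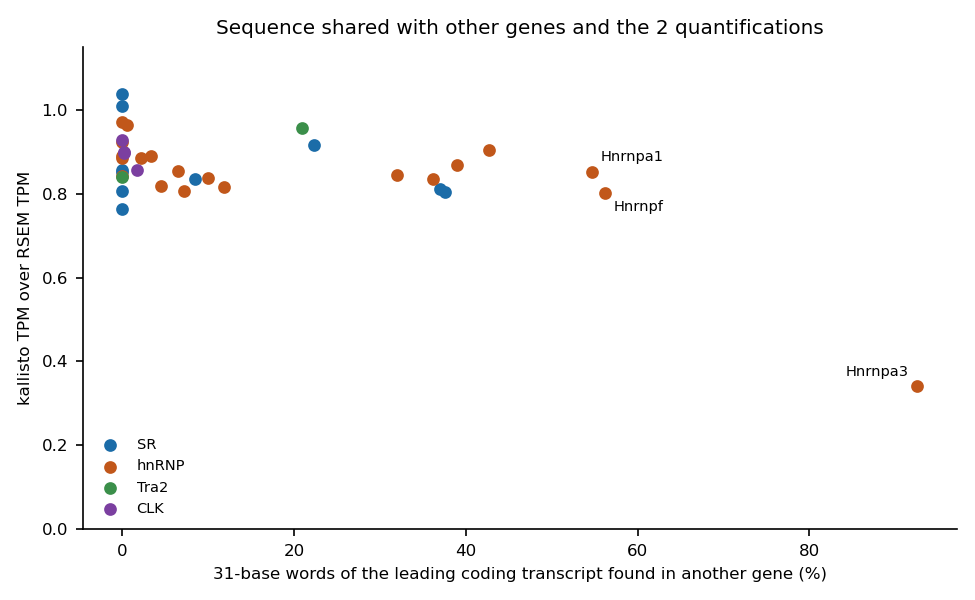
Share of the 31-base words of each gene's leading coding transcript that other genes also hold (x axis, %) against its kallisto TPM over RSEM TPM (y axis), for 36 genes coloured by class. Hnrnpa3, at 92.6% and 0.34, stands alone, while Hnrnpf and Hnrnpa1, above 50%, lie with the rest.

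Genes of the same pathways were read beside the set from 4 lists. Of the 8 kinases and import factors that act on SR proteins, 7 were at 1 TPM or more in both libraries, with a median of 14.2 TPM. Dyrk1a, a nuclear kinase of splicing factors, stood at 24.3 and 25.8 TPM and Tnpo3, the importin of SR proteins, at 22.5 and 22.0 TPM. All 18 SR-related proteins were expressed, with a median of 47.8 TPM and a median retained-intron share of 8.90%. Of these 18 proteins, 1 had a retained-intron share of 20% or more in both libraries, beside 8.96% of all genes. Their most abundant members were Snrnp70, a U1 snRNP protein, at 97.7 and 98.8 TPM, and U2af2, which binds the polypyrimidine tract, at 108 and 86.1 TPM. Of the 23 other RNA-binding proteins of hnRNP type, 22 were expressed, with a median of 55.0 TPM and a median retained-intron share of 1.84%. Pcbp2 stood at 411 and 449 TPM and the cold-inducible Rbm3 at 298 and 312 TPM. The 15 decay and exon junction factors were all expressed at a median of 13.4 TPM, led by Eif4a3, the helicase of the exon junction complex, at 69.0 and 47.6 TPM and Magoh at 45.5 and 44.3 TPM. Decay shares of 20% or more in both libraries occurred in 2 of 4, 0 of 15, 2 of 11 and 0 of 3 genes of these lists, beside 11.9% of 2773 genes. The lists differ in size and in annotated transcripts, and no test sets them apart from the other genes.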

How the data were processed

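PolyA-selected RNA of 2 libraries of 1 group was analysed, with groups and replicate numbers from the labels. Per the labels each library started from 1 µg of RNA and its size range was 250 to 400. Per the file headers, the authors deposited a gene table and a transcript table with expected counts, TPM and the percent of each gene's TPM per transcript, under RSEM column names. They also deposited a transcript table of estimated counts and TPM under kallisto column names. Per the deposited descriptions the assembly was mm10 and the annotation GENCODE M21. Program versions and strand use are not given in the sources used here, so antisense partners cannot be told apart. Entries that are no mouse gene held 0.141% and 0.134% of counts and were left out.

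Transcript types came from the kallisto identifiers. Percents were summed by gene and type, so a short transcript weighs more than in counts. Expected counts were rounded and scaled with edgeR 4.0.16 (TMM) or DESeq2 1.42.0 size factors in R 4.3.3, checked on simulated data. The upper limit behind a count of 0 was set at 3 counts, or 0.0902 and 0.0597 CPM, which covers counting error only. Structures and words of 31 bases came from the GENCODE M21 annotation and transcripts. Python 3.11.15, pandas 2.3.3, numpy 2.4.6 and matplotlib 3.10.9 were used. With 1 group there was no test.

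The members and lists were chosen with earlier results of these data known. Named were all CLK and Tra2 genes, Srsf3, the 6 SR and 8 hnRNP genes of highest TPM, the 8 of highest retained-intron and of highest decay share, the 3 furthest higher and lower, genes under 1 TPM, the 4 of largest difference between quantifications in each share, and the 2 most abundant genes of each list. Other members are named where a structure or an outlying value was described, after their values were seen.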

Additional observations from a re-analysis of the deposited data

How the results depend on the processing

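No paired analysis was possible because there is 1 group. The number of members at 1 TPM or more, the count at 100 TPM or more, the 1 member 2-fold apart and the sign of the members' median ratio were the same, within 1.5 times, under each alternative run. The median level was 48.8 TPM with kallisto, 67.3 without mitochondrial and rRNA genes, and 57.4 to 60.3 with 1 library left out. The median retained-intron share was 6.19% with kallisto, 5.87% with posterior mean TPM, 3.81% by expected counts, 4.14% at 500 counts or more, and 4.58% to 4.90% with 1 library left out. The median decay share was 9.47% with kallisto, 4.54% by expected counts, 5.53% at 500 counts or more, and 6.91% to 7.26% with 1 library left out. The median protein-coding share was 91.2% by expected counts and 89.4% at 500 counts or more. In each of these share settings the median over all genes lay on the same side of the members', but the distance varied. With posterior mean TPM the median retained-intron share was 5.87% in the members and 4.07% over all genes. The median decay share was then 8.86% in the members and 3.99% over all genes. Members with a retained-intron share past the threshold numbered 2 to 5 with 1 library left out (5 without replicate 1), 7 at a threshold of 10% and 0 at 40%. For decay shares they numbered 3 to 6 (6 without replicate 2), 8 at 10% and 1 at 40%. Leading transcripts that were not protein coding numbered 2 with kallisto, Hnrnpu and Srsf6. Of single members, the TPM of 23 of 37 moved by more than their SD with kallisto. With 2 libraries of 1 group, the spread of each gene rests on 1 difference, and the lowest genes, Clk2 and Clk4, have the least counts behind their shares.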
